A study of Homo sapiens with 22 samples.

Results

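The comparison described here set an inhibitor of active RAS directly against an inhibitor of the phosphatase SHP2 in tumours of the same cell line. The members were the 8 deposited count columns labelled RMC-7977 or RMC-4550, 4 tumours each, out of 22 tumours in the series, and all 16076 of 58735 genes that passed a filter on low counts. Every tumour was a xenograft of H2110, an established human lung adenocarcinoma line listed with genotype WT, and was dosed orally for 3 days after growing to about 300 mm³ by the labels. The groups were RMC-7977 at 10 mg/kg (4 tumours), RMC-4550 at 30 mg/kg (4 tumours) and Vehicle (6 tumours), the last used only as a level to read the others against. RNA was sequenced as strand-specific libraries of total RNA, and the values were raw read counts per gene, given below as CPM, each count scaled to a common TMM library size. The doses differ, so every difference holds at these doses. A single line, an unnamed host and tumours not stated to come from separate animals limit what the groups stand for, and the p-values reflect only the spread among these tumours, part of which may be technical.

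Both drugs act on the route from receptor tyrosine kinases to ERK. SHP2, encoded by PTPN11, is a phosphatase that relays signals from activated receptors through adaptors and the exchange factor SOS, so that RAS proteins load GTP; RMC-4550 holds SHP2 in its inactive form. RMC-7977 binds the chaperone-like protein cyclophilin A, the product of PPIA, and the pair then docks onto GTP-bound RAS and blocks its contact with RAF. GTP-bound RAS also feeds other effectors, among them PI3 kinase, and ERK drives transcription of feedback genes such as DUSP6 and the ETV factors. RIT1, a RAS-related GTPase that stands in the title of the study, signals into the same pathway.

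A pair of the 8 libraries stood apart from the rest. RMC-7977 replicate 3 had 5.02% of its detected genes at only 1 or 2 counts, and its most frequent count was 4, against 17.6% to 21.9% and a most frequent count of 1 in the other 7. In RMC-4550 replicate 1, ribosomal protein genes took 9.23% of the counts and mitochondrially encoded genes 5.94%, against 2.89% to 6.47% and 8.27% to 10.98% in the other 7. Within the 8, the rank correlation, across genes, of GC content with how far a library lay from each gene's mean was −0.45 in RMC-7977 replicate 3 and −0.57 in RMC-4550 replicate 1, and 0.21 to 0.47 in the other 6. Total counts were 10353740 to 15005429 under RMC-7977 and 11951272 to 15888488 under RMC-4550. The differences between the drugs are therefore given with the 8 tumours and again without these 2 libraries, as 3 against 3. The tumours carried general epithelial markers, with 8 of 8 tested and a sum of 4086 to 6219 CPM under RMC-7977 and 3132 to 4762 CPM under RMC-4550. Of 13 alveolar type 2 genes, 10 could be tested. The 13 summed to 437 to 793 CPM under RMC-7977 and 556 to 783 CPM under RMC-4550. CD36, whose values are given below, is in this list, and CD36 and LPCAT1 held most of the sum in each tumour. LPCAT1 was at 160 to 395 CPM under RMC-7977 and 117 to 387 CPM under RMC-4550. SLC34A2 was at 48.1 to 162 CPM under RMC-7977 and 33.7 to 146 CPM under RMC-4550. Some markers of the lung lineage were near absent or uneven, with NAPSA at 0.673 to 1.14 CPM under RMC-7977 and 0.582 to 2.12 CPM under RMC-4550. SFTPC stood at 0 to 0.204 CPM under RMC-7977 and 0 to 0.209 CPM under RMC-4550, and NKX2-1 at 0.252 to 16.3 CPM under RMC-7977 and 0.147 to 8.02 CPM under RMC-4550.

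With all 8 tumours few genes passed between the drugs. Of 16076 genes tested by edgeR's quasi-likelihood test, 28 (0.174%) passed an adjusted p of 0.05, with 10 higher (0.0622%) and 18 lower (0.112%) under RMC-7977. In each of the 28 the 4 tumours of one drug lay outside the range of the other 4, which their choice by a small p all but fixes; 1326 of the genes tested (8.25%) had such groups. Of the 28, 27 differed by at least 1 on the log2 scale, and 23 code for protein. Without RMC-7977 replicate 3 and RMC-4550 replicate 1, 816 of 16229 genes passed (5.03%), 409 higher (2.52%) and 407 lower (2.51%), with 273 of them past 1 on the log2 scale. These included all 28, and the 807 that could also be tested on 8 tumours had the same direction there.

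**Figure D1:**
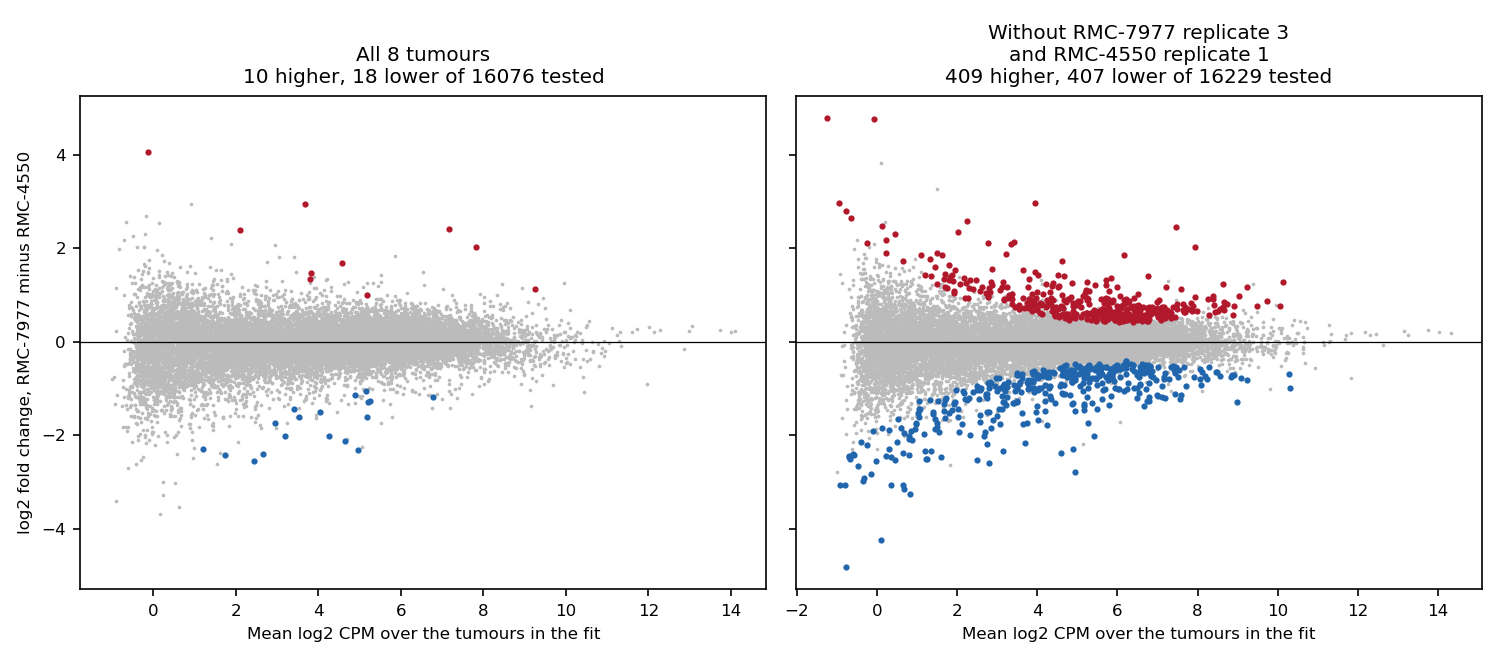
Each point is a gene, with its mean log2 CPM over the tumours in the fit on the horizontal axis and its log2 fold change, RMC-7977 minus RMC-4550, on the vertical axis; red points passed as higher under RMC-7977 and blue points as lower, and grey points did not pass. The 28 genes past the threshold in the 8 tumours stand at the edge of the cloud, and 816 genes pass without the 2 libraries.

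The number of genes past the threshold depended on single tumours. It was 70 without RMC-7977 replicate 3 alone and 64 without RMC-4550 replicate 1 alone. Leaving out RMC-7977 replicate 1, 2 or 4 gave 4, 0 and 3, and leaving out RMC-4550 replicate 2, 3 or 4 gave 0, 1 and 0, by the same edgeR test, with 1352 to 1738 genes at an unadjusted p under 0.05 in these 6 fits. Each of the 28 genes thus lost its call in at least 3 of the 8 fits that left out 1 tumour. Once both libraries were out, leaving out any 1 further tumour gave 398 to 662 genes, each time with all 28 among them, and 234 of the 816 passed in all 6 of these fits. These fits share tumours with one another and with the fit of 8, so shared calls are partly built in. The median GC content of the 409 higher genes was 52.0%, that of the 407 lower genes 46.1% and that of all genes tested 48.3%. With a correction for GC content, 148 genes passed in the 8 tumours and 892 in the 6, with all 28 among them in both.

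**Figure D2:**
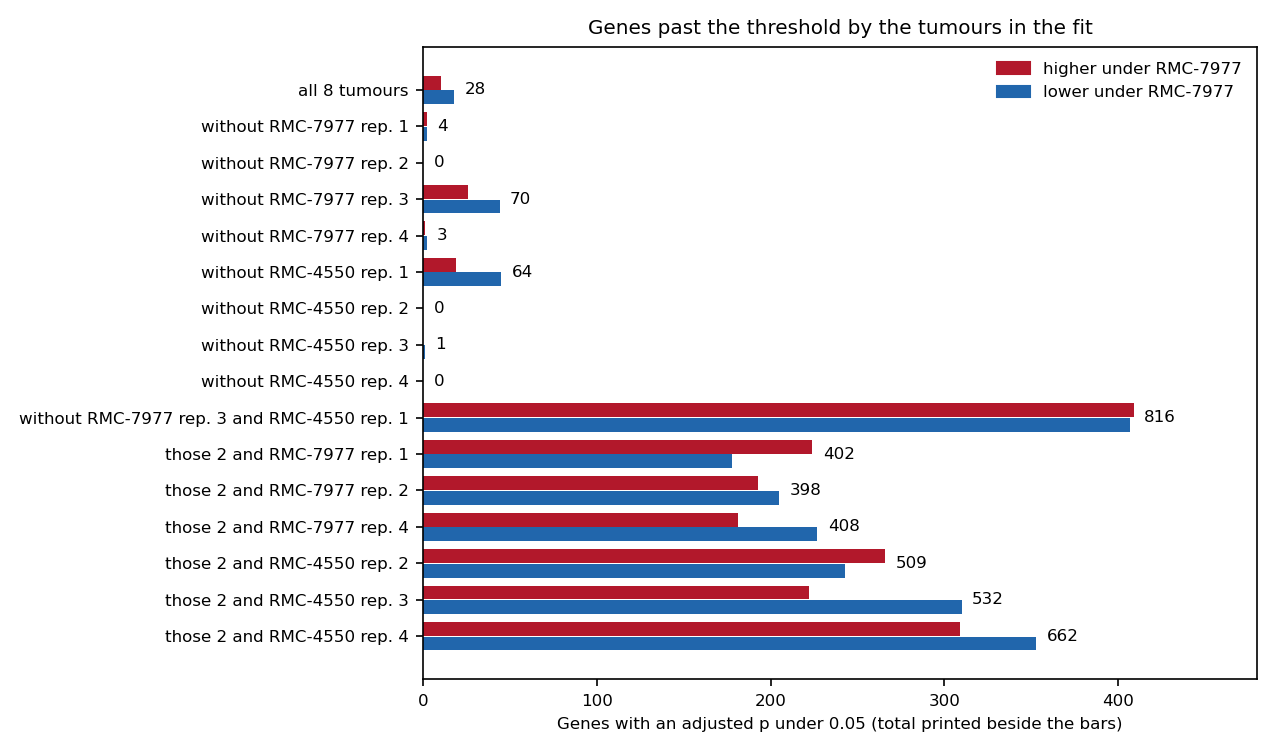
Bars give the number of genes with an adjusted p under 0.05, higher (red) and lower (blue) under RMC-7977, for each set of tumours named on the left; the total stands beside each pair of bars. The count was 28 with all 8 tumours, 0 to 4 without any of the 6 others alone, and 398 to 816 in every set without the 2 libraries.

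Among the 10 genes that rose under RMC-7977 relative to RMC-4550 were TSC22D3, KLF2 and RHOA. TSC22D3 encodes GILZ, a glucocorticoid- and FOXO-responsive leucine zipper protein (ENSG00000157514, hg38 chromosome X, 107713221 to 107777342), and had 579.9, 454, 373 and 451 CPM under RMC-7977 (replicates 1 to 4), against 89.8, 112, 118 and 137 CPM under RMC-4550. The lowest RMC-7977 tumour lay far above the highest RMC-4550 tumour and above all Vehicle tumours, at 82.5 to 175 CPM under Vehicle (median 106). The difference was 2.02 ± 0.20 on the log2 scale (SE, adjusted p = 0.00803 by edgeR's quasi-likelihood test) and 2.02 ± 0.16 without the 2 libraries (adjusted p = 3.22e-05). KLF2, a Krüppel-like transcription factor known for its part in T cell and endothelial quiescence (ENSG00000127528, hg38 chromosome 19, 16324817 to 16327874), had 38.7, 46.3, 18.6 and 44.6 CPM under RMC-7977 and 2.50, 5.14, 4.34 and 7.13 CPM under RMC-4550. RMC-7977 replicate 3 was the lowest of its group but still above every RMC-4550 tumour, and the RMC-4550 tumours lay in or below the lower part of the range of 3.79 to 20.2 CPM under Vehicle (median 10.9). KLF2 differed by 2.95 ± 0.37 (adjusted p = 0.0235 by edgeR) and by 2.96 ± 0.19 without the 2 libraries (adjusted p = 8.74e-06). RHOA, a small GTPase of the cytoskeleton and no member of the RAS subfamily that RMC-7977 targets (ENSG00000067560, hg38 chromosome 3, 49359145 to 49412998), had 894, 1056, 899 and 769 CPM under RMC-7977 and 432, 401, 445 and 368 CPM under RMC-4550. The groups were compact and far apart, with Vehicle at the RMC-4550 level, 294 to 444 CPM under Vehicle (median 394). RHOA differed by 1.14 ± 0.16 (adjusted p = 0.0344 by edgeR) and by 1.17 ± 0.17 without the 2 libraries (adjusted p = 0.00215).

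PSCA, FGFBP1 and KRT15 also rose. PSCA, a GPI-anchored surface protein of prostate, bladder and stomach epithelium, had 319, 397, 167 and 539 CPM under RMC-7977 and 37.5, 88.2, 63.8 and 77.2 CPM under RMC-4550. FGFBP1, a secreted carrier that releases FGFs from the matrix, had 32.3, 45.2, 38.8 and 56.9 CPM under RMC-7977 and 12.7, 13.9, 11.3 and 15.6 CPM under RMC-4550. KRT15, a basal-layer keratin, had 19.96, 22.6, 21.4 and 23.4 CPM under RMC-7977 and 8.43, 8.23, 7.87 and 9.92 CPM under RMC-4550. In none of these 3 genes did the groups overlap, and the log2 differences were 2.41 ± 0.37, 1.70 ± 0.21 and 1.34 ± 0.16 (adjusted p = 0.0383, 0.0219 and 0.0219 by edgeR). Without the 2 libraries they were 2.46 ± 0.20, 1.73 ± 0.20 and 1.35 ± 0.17 (adjusted p = 4.95e-05, 7.12e-04 and 9.34e-04 by edgeR). FAXDC2, a membrane protein of the fatty acid hydroxylase family, and PRR15L, a proline-rich protein, differed by 1.47 ± 0.22 and 0.997 ± 0.15 (adjusted p = 0.0383 and 0.0344 by edgeR), and by 1.495 ± 0.19 and 1.04 ± 0.14 with 6 tumours (adjusted p = 8.28e-04 and 0.00140). RPTN, repetin of the cornified layer, was outside the naming rule for its low level and was chosen after its values were seen. It had 41, 58, 16 and 26 counts under RMC-7977 and 4, 2, 2 and 1 counts under RMC-4550 (adjusted p = 0.0344 with 8 tumours and 7.12e-04 with 6 by edgeR), too few in RMC-4550 tumours for a firm fold.

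**Figure D3:**
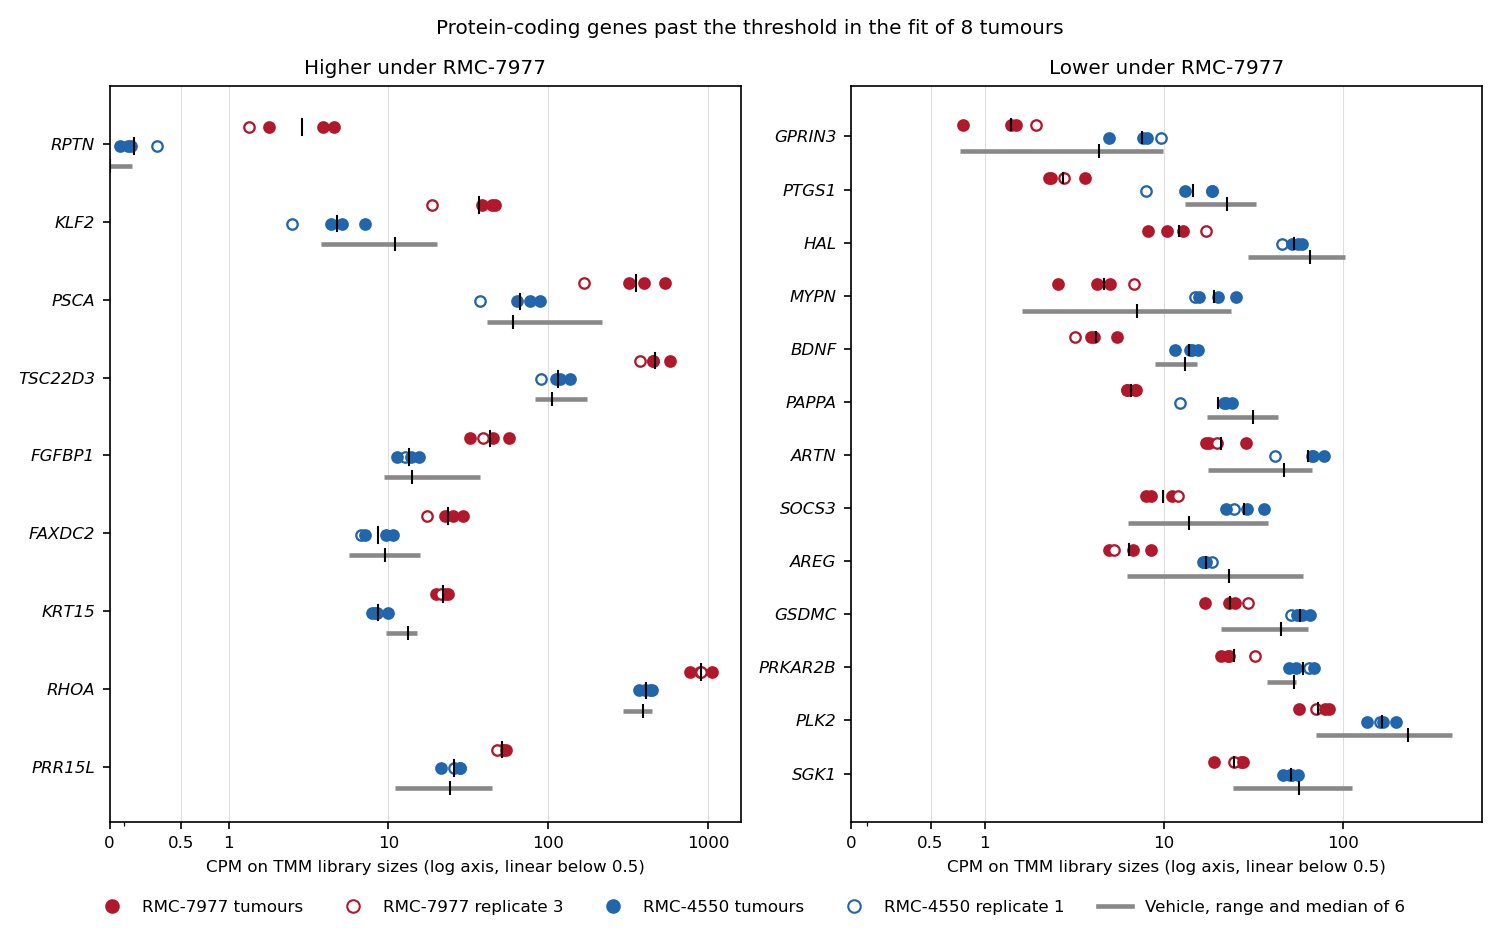
CPM of 22 of the 23 protein-coding genes that passed with the 8 tumours, on a log axis that is linear below 0.5; red points are RMC-7977 tumours, blue points RMC-4550 tumours, open points the 2 libraries that stood apart, black ticks the group means, and grey bars the range of the 6 Vehicle tumours with the median. In each gene shown the red points lie on one side of the blue points, and the blue points overlap the Vehicle range.

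The 18 genes that fell under RMC-7977 relative to RMC-4550 included a cyclooxygenase, secreted growth factors and a cytokine signalling brake. The smallest adjusted p among them was that of LUCAT1, a long noncoding RNA annotated as antisense (ENSG00000248323, hg38 chromosome 5, 91054834 to 91314547), with 12.6, 13.2, 16.1 and 14.6 CPM under RMC-7977 (replicates 1 to 4), against 84.5, 76.5, 44.9 and 76.3 CPM under RMC-4550. Even the lowest RMC-4550 tumour, replicate 3, had more than any RMC-7977 tumour, and the difference was −2.32 ± 0.22 (SE, adjusted p = 0.00803 by edgeR's quasi-likelihood test) and −2.28 ± 0.20 without the 2 libraries (adjusted p = 1.27e-04). The strand setting of the counting is not given in the sources used here, so reads of overlapping genes on the other strand cannot be told apart from its own. PTGS1, the constitutive cyclooxygenase that opens prostaglandin synthesis (ENSG00000095303, hg38 chromosome 9, 122370530 to 122395703), had 2.28, 2.35, 2.78 and 3.62 CPM under RMC-7977 and 8.01, 13.2, 18.5 and 18.5 CPM under RMC-4550. All 4 RMC-7977 tumours were also below the Vehicle tumours, 13.1 to 32.9 CPM under Vehicle (median 22.5), and the log2 difference from RMC-4550 was −2.39 ± 0.31 (adjusted p = 0.0273 by edgeR) and −2.58 ± 0.25 without the 2 libraries (adjusted p = 1.47e-04). AREG, amphiregulin, a ligand of the EGF receptor (ENSG00000109321, hg38 chromosome 4, 74445134 to 74455009), had 4.94, 8.54, 5.31 and 6.76 CPM under RMC-7977 and 18.5, 17.29, 16.9 and 16.6 CPM under RMC-4550. The RMC-4550 tumours were almost level with one another, and the difference was −1.44 ± 0.21 (adjusted p = 0.0344 by edgeR) and −1.32 ± 0.21 without the 2 libraries (adjusted p = 0.00396).

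The remaining protein-coding genes that fell cover several functions. BDNF and ARTN are neurotrophic factors, and PAPPA is a protease that frees insulin-like growth factors from a binding protein. BDNF had 4.09, 3.92, 3.20 and 5.46 CPM under RMC-7977 and 14.4, 11.5, 15.5 and 14.05 CPM under RMC-4550. ARTN had 28.8, 18.02, 19.97 and 17.27 CPM under RMC-7977 and 42.0, 67.4, 79.0 and 67.9 CPM under RMC-4550. PAPPA had 6.94, 7.05, 6.24 and 6.21 CPM under RMC-7977 and 12.4, 22.4, 24.2 and 21.8 CPM under RMC-4550. Their log2 differences were −1.73 ± 0.22, −1.61 ± 0.24 and −1.61 ± 0.23 (adjusted p = 0.0255, 0.0344 and 0.0344 by edgeR), and RMC-4550 replicate 1 was the lowest of its group in ARTN and PAPPA. With 6 tumours the differences were −1.59 ± 0.22, −1.75 ± 0.18 and −1.76 ± 0.17 (adjusted p = 0.00202, 2.52e-04 and 1.47e-04 by edgeR). SOCS3, which restrains JAK and STAT signalling, had 8.46, 11.1, 11.97 and 7.99 CPM under RMC-7977 and 24.8, 36.4, 22.3 and 29.1 CPM under RMC-4550, a log2 difference of −1.51 ± 0.22 with 8 tumours (adjusted p = 0.0344 by edgeR) and −1.67 ± 0.20 with 6 (adjusted p = 7.61e-04). Here the Vehicle tumours spanned both groups, 6.29 to 38.2 CPM under Vehicle (median 13.9). HAL, the enzyme that starts histidine breakdown, had 8.18, 10.5, 17.27 and 12.9 CPM under RMC-7977 and 45.9, 56.2, 58.9 and 51.9 CPM under RMC-4550, a log2 difference of −2.12 ± 0.23 with 8 tumours (adjusted p = 0.0167 by edgeR) and −2.39 ± 0.17 with 6 (adjusted p = 1.23e-05). GPRIN3, known from neurite outgrowth, and MYPN, a sarcomere protein, differed by −2.42 ± 0.33 and −2.02 ± 0.30 with 8 (adjusted p = 0.0335 and 0.0344 by edgeR) and −2.46 ± 0.34 and −2.34 ± 0.26 with 6. GSDMC, a gasdermin, PRKAR2B, a regulatory subunit of protein kinase A, and PLK2, a polo-like kinase, differed by −1.29 ± 0.19, −1.27 ± 0.19 and −1.19 ± 0.18 (adjusted p = 0.0344 by edgeR for each), and by −1.46 ± 0.15, −1.38 ± 0.15 and −1.18 ± 0.17 with 6 tumours. SGK1, a kinase activated downstream of PI3 kinase, stood next in the order of size after the 12 falls the rule takes and was added after its values were seen, with 19.0, 27.2, 24.7 and 27.8 CPM under RMC-7977 and 52.2, 51.0, 56.4 and 46.6 CPM under RMC-4550 (−1.06 ± 0.17, adjusted p = 0.0390 by edgeR, and −1.05 ± 0.16 with 6). The noncoding genes AC092135.3, AC103718.1, CPHL1P and FZD10-DT, also named after their values were seen, fell by 2.56, 2.29, 2.01 and 1.13 on the log2 scale with 8 tumours, and were at −2.53, −2.33, −1.79 and −1.31 with 6.

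The 28 genes were also set against Vehicle as levels, with no test. These genes, and those called without the 2 libraries, were chosen by the same RMC-7977 and RMC-4550 values. A larger share outside the Vehicle range than among all genes is therefore partly set by that choice. In 7 of the 10 genes that rose, all RMC-7977 tumours lay above all 6 Vehicle tumours, against 2.29% of all genes tested. In 8 of the 18 genes that fell, all RMC-7977 tumours lay below all Vehicle tumours, against 2.00% of all genes tested. The RMC-4550 tumours overlapped the Vehicle range in all 28, and in 13 of the 28 (3 that rose and 10 that fell) the tumours of both drugs did. In the fit without the 2 libraries, among genes also tested on 8 tumours, the 3 RMC-7977 tumours lay above Vehicle in 214 of 405 higher genes, against 4.56% of all genes, and below it in 137 of 402 lower genes, against 3.72%. The 3 RMC-4550 tumours lay below Vehicle in 4 of those higher genes, against 0.789%, and above it in 26 of those lower genes, against 1.47%.

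Promoter sequences of 3 genes that fell, AREG, LUCAT1 and PTGS1, are shown because they held motif letters of factors known to act downstream of ERK, of cyclic AMP or of oxidative stress. They are the 250 bases before the gene's start from the RefSeq table (GRCh38.p14), printed 5′ to 3′ on the gene's strand, with motif matches in capitals. AREG lies at chr4:74444886-74445135, + strand, with capitals for TGACGTCA, the cyclic AMP response element (CRE), 65 to 58 bases before the start. LUCAT1 lies at chr5:91314403-91314652, − strand, its RefSeq start being inside the interval that the count table gives this gene, with capitals for the antioxidant response element (ARE) TGACNNNGC 54 to 46 bases before the start, a run that also contains an AP-1 match. PTGS1 lies at chr9:122370283-122370532, + strand, with capitals for TGACNNNGC 157 to 149 bases before the start.
AREG: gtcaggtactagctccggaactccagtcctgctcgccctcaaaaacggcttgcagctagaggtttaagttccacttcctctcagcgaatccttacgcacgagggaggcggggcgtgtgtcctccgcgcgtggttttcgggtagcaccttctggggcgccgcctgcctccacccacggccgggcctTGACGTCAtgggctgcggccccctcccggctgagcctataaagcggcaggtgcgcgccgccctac
LUCAT1: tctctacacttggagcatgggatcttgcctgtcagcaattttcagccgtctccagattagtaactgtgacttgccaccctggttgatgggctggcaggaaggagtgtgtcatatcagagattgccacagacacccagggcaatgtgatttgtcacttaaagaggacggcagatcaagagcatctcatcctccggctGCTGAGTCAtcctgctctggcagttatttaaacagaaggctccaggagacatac
PTGS1: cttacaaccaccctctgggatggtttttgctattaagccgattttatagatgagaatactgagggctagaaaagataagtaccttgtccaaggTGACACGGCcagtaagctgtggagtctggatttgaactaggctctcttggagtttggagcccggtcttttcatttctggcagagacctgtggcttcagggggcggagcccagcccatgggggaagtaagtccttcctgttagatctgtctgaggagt
Both strands were searched for these letters and for TGANTCA (AP-1), GTAAACA (FOXO) and CCGGAAGT (ETS), and an ARE match can contain an AP-1 match. RefSeq promoters matched 6 of the 10 genes that rose and 12 of the 18 that fell. The CRE was found in 1 of these 12, against 1.65% of 35116 promoters, the ARE in 2, against 10.9%, the AP-1 motif in 1, against 6.57%, and the FOXO motif in 2 (BDNF and PAPPA), against 2.98%. Of the 6 that rose, RPTN held AP-1 letters, and TSC22D3 and KLF2 held none of the 5 motifs in this window. A match describes letters only.

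No gene of the ERK output list passed between the drugs with all 8 tumours. Of 10 MAPK output genes, 8 could be tested, with 0 called and a median log2 difference of −0.55, against −0.01 for all genes tested. DUSP6, the phosphatase of ERK, had 1.43, 1.02, 1.77 and 1.43 CPM under RMC-7977 and 1.08, 1.86, 0.956 and 2.45 CPM under RMC-4550. Both groups were far below 20.9 CPM under Vehicle (8.06 to 26.2) and overlapped fully, with a difference of −0.18 ± 0.39 with 8 tumours (adjusted p = 0.910 by edgeR) and −0.44 ± 0.43 with 6 (adjusted p = 0.621). ETV4, an ETS factor induced by ERK, had 0.570, 1.097, 0.421 and 1.09 CPM under RMC-7977 and 1.92, 7.46, 4.93 and 3.84 CPM under RMC-4550. All RMC-7977 tumours were below all RMC-4550 tumours, set against 20.5 CPM under Vehicle (6.61 to 29.8), and the difference of −2.48 ± 0.48 did not pass (adjusted p = 0.105 by edgeR). ETV5 had 1.43, 1.097, 1.43 and 3.69 CPM under RMC-7977 and 3.50, 8.87, 8.09 and 3.36 CPM under RMC-4550 and overlapped between the drugs (−1.62 ± 0.48, adjusted p = 0.230 by edgeR, and −1.67 ± 0.48, adjusted p = 0.0761, without the 2 libraries).

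With the 2 libraries left out, 2 of these 8 genes fell, and the median was −0.79. Of all genes tested in that fit, 2.51% fell and 2.52% rose, and the median was −0.002. Calls with 6 tumours in this list and those below are to be read beside these shares. ETV4 differed by −2.52 ± 0.37 (adjusted p = 0.00261 by edgeR's quasi-likelihood test). DUSP4, a nuclear phosphatase of MAP kinases, had 104, 160.4, 108 and 127 CPM under RMC-7977 and 125, 352, 256 and 259.8 CPM under RMC-4550. RMC-4550 replicate 1 lay within the RMC-7977 range while the other 3 RMC-4550 tumours lay above it, and DUSP4 differed by −0.99 ± 0.29 with it (adjusted p = 0.221) and −1.15 ± 0.18 in the 6 tumours (adjusted p = 0.00357 by edgeR). PHLDA1, a feedback gene of receptor signalling, differed by −0.93 ± 0.38 in 8 tumours (adjusted p = 0.395 by edgeR) and −1.19 ± 0.40 in 6 (adjusted p = 0.106). SPRY2, EPHA2 and CCND1 gave log2 differences of −0.08 ± 0.17, 0.37 ± 0.35 and 0.17 ± 0.26 (adjusted p = 0.904, 0.767 and 0.856 by edgeR), with overlapping groups. In the 6 tumours these were −0.18 ± 0.17, 0.24 ± 0.19 and 0.09 ± 0.15 (adjusted p = 0.600, 0.538 and 0.805 by edgeR). SPRY4 and EPHA4 did not pass the filter on counts, with 3, 3, 0 and 10 counts under RMC-7977 and 9, 10, 5 and 7 under RMC-4550 for SPRY4, and 1 count in the 8 libraries for EPHA4. Of 9 MAP kinase phosphatases 0 passed with 8 tumours (median −0.30) and 2 fell with 6 (DUSP1 and DUSP4, median −0.44). DUSP1 differed by −0.64 ± 0.17 there (adjusted p = 0.0492 by edgeR) and kept the call in 1 of the 6 fits without a further tumour, where ETV4 and DUSP4 passed in all 6.

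**Figure D4:**
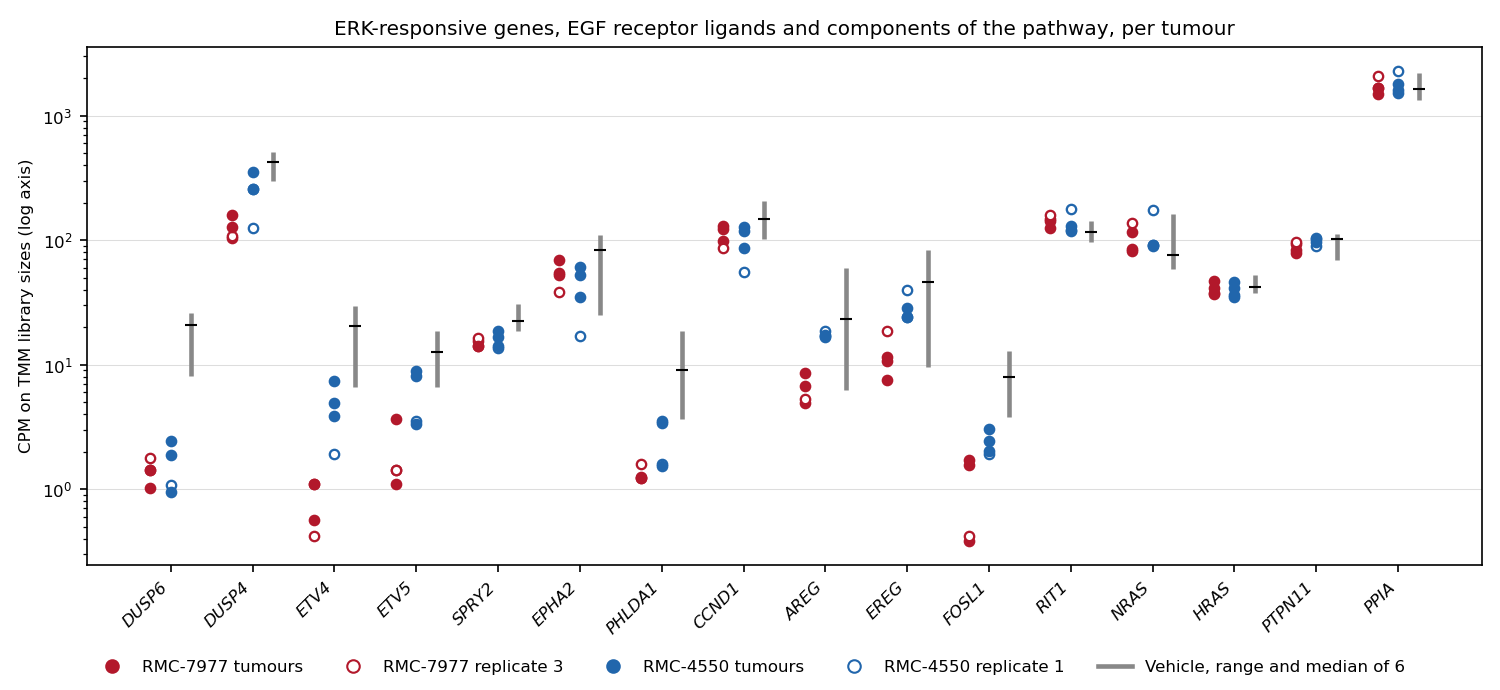
CPM per tumour on a log axis for MAPK output genes, 2 EGF receptor ligands, FOSL1 and components of the pathway; red points are RMC-7977 tumours, blue points RMC-4550 tumours, open points the 2 libraries that stood apart, and grey bars the range of the 6 Vehicle tumours with the median. DUSP6 and FOSL1 lie below the Vehicle range under both drugs, ETV4 and AREG separate the drugs, and RIT1, HRAS, PTPN11 and PPIA overlap.

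Immediate early genes, the fast transcriptional response to ERK, did not separate the drugs with 8 tumours, with 0 of 15 called and a median of −0.28; without the 2 libraries MYC fell and the median was −0.35. EGR1 had 0.190, 0.313, 0.421 and 2.32 CPM under RMC-7977 and 1.67, 7.07, 1.32 and 3.77 CPM under RMC-4550, spread widely within each group (−2.03 ± 0.78 with 8 tumours, adjusted p = 0.365 by edgeR, and −2.02 ± 0.91 with 6, adjusted p = 0.277). FOSL1 had 0.380, 1.57, 0.421 and 1.71 CPM under RMC-7977 and 1.92, 2.44, 3.02 and 2.03 CPM under RMC-4550, with groups that did not overlap (−1.17 ± 0.49 with 8 tumours, adjusted p = 0.419 by edgeR, and −0.99 ± 0.46 with 6, adjusted p = 0.249). FOS differed by −1.02 ± 0.41 and IER3 by −0.68 ± 0.28, and neither passed (adjusted p = 0.390 and 0.407 by edgeR); with 6 they were at −0.89 ± 0.47 and −0.66 ± 0.37 (adjusted p = 0.378 and 0.390). MYC, the growth-promoting transcription factor, had 50.2, 48.8, 78.4 and 60.4 CPM under RMC-7977 and 62.8, 74.7, 81.2 and 78.6 CPM under RMC-4550. It fell by 0.55 on the log2 scale without the 2 libraries (adjusted p = 0.0225 by edgeR) but kept that call in 3 of the 6 fits that left out a further tumour, and it was at −0.32 ± 0.18 with 8 (adjusted p = 0.573).

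Of 7 EGF receptor ligands tested, AREG fell with 8 tumours, and AREG and EREG fell with 6, with medians of −0.60 and −0.33. EREG, epiregulin, had 11.5, 7.52, 18.6 and 10.7 CPM under RMC-7977 and 40.2, 24.2, 24.3 and 28.3 CPM under RMC-4550. All RMC-7977 tumours were below all RMC-4550 tumours, RMC-7977 replicate 3 being the highest of its group. EREG differed by −1.27 ± 0.29 with 8 tumours (adjusted p = 0.128 by edgeR) and −1.36 ± 0.18 with 6 (adjusted p = 0.00146). TGFA, another ligand, had a positive difference that did not pass, at 0.35 ± 0.15 (adjusted p = 0.421 by edgeR), and EPGN differed by −0.64 ± 0.41 (adjusted p = 0.622). With 6 tumours TGFA and EPGN were at 0.38 ± 0.13 and −0.40 ± 0.21 (adjusted p = 0.116 and 0.299 by edgeR).

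RIT1, PTPN11 and PPIA did not pass between the drugs with 8 or with 6 tumours. RIT1 had 143, 147, 160.0 and 124 CPM under RMC-7977 and 178, 122, 118 and 131 CPM under RMC-4550. PTPN11, which encodes SHP2, had 83.3, 93.3, 97.4 and 79.5 CPM under RMC-7977 and 89.0, 102, 103 and 97.1 CPM under RMC-4550. PPIA, the presenter protein of RMC-7977, had 1682, 1662, 2091 and 1503 CPM under RMC-7977 and 2304, 1509, 1794 and 1597 CPM under RMC-4550. The groups overlapped in all 3 genes, and the log2 differences were 0.07 ± 0.17, −0.15 ± 0.14 and −0.05 ± 0.20 (adjusted p = 0.922, 0.753 and 0.947 by edgeR's quasi-likelihood test). With 6 tumours they were 0.17 ± 0.12, −0.24 ± 0.11 and −0.01 ± 0.17 (adjusted p = 0.484, 0.266 and 0.982 by edgeR). PPIA has near-identical processed copies in the genome, so its counts are uncertain. NRAS and HRAS differed by −0.09 ± 0.27 and 0.04 ± 0.16 (adjusted p = 0.932 and 0.954 by edgeR); RMC-4550 replicate 1 had 175 CPM of NRAS against 89.5 to 91.4 CPM in the other 3, and without the 2 libraries the sign of NRAS turned (0.05 ± 0.14), while HRAS was at 0.04 ± 0.14. Of 16 RAS family GTPases 0 passed with 8 tumours, and the medians with 8 and 6 were 0.02 and 0.07. Of 13 cyclophilins 0 passed either way, with medians of −0.08 and −0.03.

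Among SHP2, its adaptors, exchange factors and RAS-GAPs, 0 of 20 passed with 8 tumours, and SOS2 and GAB2 rose and IRS2 fell with 6. SOS2, an exchange factor that loads RAS, had 74.2, 76.8, 79.5 and 76.0 CPM under RMC-7977 and 49.4, 56.2, 55.5 and 58.7 CPM under RMC-4550. Every RMC-7977 tumour was above every RMC-4550 tumour, and the difference was 0.48 ± 0.13 with 8 tumours (adjusted p = 0.193 by edgeR) and 0.42 ± 0.11 with 6 (adjusted p = 0.0466). SOS2 lost the second call without any 1 of the 6 tumours. GAB2, a docking protein for SHP2, differed by 0.54 ± 0.12 and IRS2, an adaptor of insulin receptors, by −0.79 ± 0.19 with 6 tumours (adjusted p = 0.0208 and 0.0350 by edgeR), and by 0.67 ± 0.29 and −0.78 ± 0.35 with 8 (adjusted p = 0.435 and 0.459). They kept these calls in 2 and 3 of the 6 fits without a further tumour, and MAPK3, below, in 1. Of 13 RAF, MEK and ERK kinases and scaffolds, 12 had positive differences with 8 tumours (median 0.24), against 49.2% of all genes tested, and 0 passed. With 6, MAPK3, which encodes ERK1, rose by 0.67 ± 0.17 (adjusted p = 0.0405 by edgeR) and the median was 0.18. MAPK3 was at 0.66 ± 0.22 with 8 tumours (adjusted p = 0.305 by edgeR). MAP2K1 and MAP2K2 differed by 0.24 ± 0.19 and 0.27 ± 0.21 with 8 tumours (adjusted p = 0.719 and 0.702 by edgeR), and by 0.10 ± 0.14 and 0.22 ± 0.12 with 6 (adjusted p = 0.754 and 0.318).

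Of 16 genes linked to PI3 kinase and FOXO factors, 11 were positive in 8 tumours (68.8%, against 49.2% of all genes tested). Their median was 0.21, and TSC22D3 was the gene that passed. With 6 tumours 12 were positive (75%, against 49.7%), the median was 0.22, and TSC22D3 and TXNIP rose. The list was not tested as a set. TXNIP, an inhibitor of thioredoxin and glucose uptake, had 367, 445, 236 and 577 CPM under RMC-7977 and 143, 250.3, 209.5 and 283 CPM under RMC-4550. It rose by 0.91 ± 0.18 without the 2 libraries (adjusted p = 0.0139 by edgeR) and was at 0.87 ± 0.29 with them (adjusted p = 0.298). PIK3IP1, which restrains PI3 kinase, had 30.9, 39.3, 28.5 and 34.7 CPM under RMC-7977 and 16.4, 21.9, 10.96 and 25.1 CPM under RMC-4550, with no overlap (0.84 ± 0.25 with 8, adjusted p = 0.230 by edgeR, and 0.86 ± 0.26 with 6, adjusted p = 0.0948). Of 10 Krüppel-like factors, KLF2 rose with both sets of tumours; the median was 0.29 with 8 and 0.25 with 6. KLF3, KLF6 and KLF10 differed by 0.37 ± 0.12, 0.45 ± 0.16 and −0.31 ± 0.13 and did not pass (adjusted p = 0.297, 0.335 and 0.431 by edgeR). In the 6 tumours they were at 0.36 ± 0.11, 0.39 ± 0.15 and −0.34 ± 0.11 (adjusted p = 0.0829, 0.163 and 0.102 by edgeR). Of 8 SOCS family genes, SOCS3 fell with both sets; SOCS2 differed by 0.43 ± 0.25 with 8 tumours and 0.44 ± 0.25 with 6 (adjusted p = 0.576 and 0.364 by edgeR), with 17.1, 11.6, 16.8 and 12.97 CPM under RMC-7977 and 12.4, 6.43, 12.4 and 12.1 CPM under RMC-4550 and 4.43 CPM under Vehicle (2.33 to 5.74).

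NF-κB targets and inflammatory cytokines leaned downward, with 12 of 13 negative and a median of −0.62 in 8 tumours and −0.64 in 6, against 50.8% and 50.3% of all genes tested that were negative. None passed with 8 tumours, and 4 fell with 6, where 2.51% of all genes tested fell. CXCL8, the neutrophil chemokine interleukin 8, had 5.04, 5.25, 13.4 and 7.51 CPM under RMC-7977 and 37.5, 18.4, 7.94 and 19.5 CPM under RMC-4550 and differed by −1.41 ± 0.46 with 8 (adjusted p = 0.284 by edgeR) and −1.36 ± 0.32 with 6 (adjusted p = 0.0355). CXCL2, a related chemokine, had 3.23, 3.21, 4.89 and 6.90 CPM under RMC-7977 and 9.18, 10.0, 11.99 and 9.36 CPM under RMC-4550, and differed by −1.15 ± 0.28 with 8 (adjusted p = 0.147 by edgeR) and −1.21 ± 0.29 with 6 (adjusted p = 0.0330). IL6 was near the counting floor under RMC-7977, with 1, 1, 11 and 7 counts there and 14, 36, 26 and 17 counts under RMC-4550; it fell with 6 tumours (−2.91 ± 0.62, adjusted p = 0.0175 by edgeR) and did not pass with 8 (−2.03 ± 0.64, adjusted p = 0.265). TNFAIP3, the A20 brake on NF-κB, differed by −0.59 ± 0.22 with 8 (adjusted p = 0.348 by edgeR) and −0.64 ± 0.17 with 6 (adjusted p = 0.0492). CXCL8 and TNFAIP3 kept the call in 1 of the 6 fits that left out a further tumour, CXCL2 in 2 and IL6 in 3. Myeloid markers, which can share such genes, summed to 7.30 to 11.1 CPM under RMC-7977 and 9.07 to 15.3 CPM under RMC-4550, with AIF1 at 0 in all 8 tumours and 3 of 12 high enough to be tested. All 3 (CD14, LAPTM5 and CSF1R) had negative differences, with medians of −0.62 with 8 tumours and −0.85 with 6. LAPTM5 was at −1.21 ± 0.72 with 8 (adjusted p = 0.588 by edgeR) and fell with 6, at −2.46 ± 0.66 (adjusted p = 0.0492). It was near the counting floor, with 1, 5, 12 and 1 counts under RMC-7977 and 5, 14, 13 and 19 counts under RMC-4550. LAPTM5 kept the call in 1 of the 6 fits that left out a further tumour. The part of these markers in the result was not tested. In bulk tumours fewer cells of a type and less RNA per cell cannot be told apart.

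Targets of NRF2, the transcription factor of the antioxidant response, had 17 of 18 negative differences with 8 tumours, a median of −0.44, and 0 past the threshold. With 6 tumours 6 fell, AKR1C1, AKR1C3, AKR1B10, SLC7A11, GPX2 and SRXN1, with 16 of 18 negative and a median of −0.44. Of all genes tested, 50.8% were negative with 8 tumours and 50.3% with 6, and 2.51% passed as lower with 6. SLC7A11, the cystine importer, had 144, 177, 256 and 136 CPM under RMC-7977 and 487, 307, 297 and 279 CPM under RMC-4550. RMC-4550 replicate 1 and RMC-7977 replicate 3 were the highest of their groups, and the difference was −0.94 ± 0.25 with 8 tumours (adjusted p = 0.192 by edgeR) and −0.95 ± 0.14 with 6 (adjusted p = 0.00234). GPX2, a glutathione peroxidase, had 40.9, 73.6, 56.0 and 49.0 CPM under RMC-7977 and 125, 103, 137 and 88.2 CPM under RMC-4550 and differed by −1.05 ± 0.21 with 8 (adjusted p = 0.116 by edgeR) and −0.998 ± 0.23 with 6 (adjusted p = 0.0359). SRXN1, sulfiredoxin, had 6.65, 9.87, 9.18 and 7.24 CPM under RMC-7977 and 18.2, 16.9, 16.4 and 14.3 CPM under RMC-4550 and differed by −0.997 ± 0.19 with 8 (adjusted p = 0.102 by edgeR) and −0.995 ± 0.20 with 6 (adjusted p = 0.0134). Of the 6, AKR1C1 and SLC7A11 passed in all 6 fits without a further tumour, SRXN1 in 5, AKR1B10 in 4, and AKR1C3 and GPX2 in 2. In GPX2 and SRXN1 no RMC-7977 tumour reached the lowest RMC-4550 tumour. The aldo-keto reductase AKR1C1 had 250.4, 435, 476 and 305 CPM under RMC-7977 and 1356, 922, 862 and 642 CPM under RMC-4550 and differed by −1.37 ± 0.28 with 8 (adjusted p = 0.116 by edgeR) and −1.29 ± 0.21 with 6 (adjusted p = 0.00496). AKR1C1 and AKR1C3 are close in sequence, and how multi-mapping reads were handled is not given in the sources used here, so the split between them is uncertain. Of 14 NRF2 targets with a RefSeq promoter, 5 held ARE letters (GCLM, TXNRD1, PGD, ME1 and GPX2), against the 10.9% of all promoters given above. Of the 6 genes that fell, GPX2 held them and AKR1C1, AKR1C3 and SRXN1 did not, while AKR1B10 and SLC7A11 matched no RefSeq promoter. The list was made of known NRF2 targets, so this share is not a result of these data.

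Cholesterol synthesis genes leaned the other way, with 22 of 23 positive with 8 and with 6 tumours and medians of 0.45 and 0.40, against 49.2% and 49.7% of all genes tested that were positive. None passed with 8 tumours, and LSS, MVD and MVK rose with 6, where 2.52% of all genes tested rose. LSS, lanosterol synthase, had 138, 164, 119 and 237 CPM under RMC-7977 and 29.3, 83.3, 71.1 and 49.8 CPM under RMC-4550. RMC-4550 replicate 1 was the lowest of the 8, and no RMC-4550 tumour reached the lowest RMC-7977 tumour; LSS differed by 1.49 ± 0.33 with 8 tumours (adjusted p = 0.121 by edgeR) and 1.41 ± 0.23 with 6 (adjusted p = 0.0102). MVK, mevalonate kinase, had 33.6, 44.9, 44.9 and 54.8 CPM under RMC-7977 and 19.95, 27.6, 29.1 and 22.9 CPM under RMC-4550, a difference of 0.84 ± 0.19 with 8 (adjusted p = 0.137 by edgeR) and 0.75 ± 0.17 with 6 (adjusted p = 0.0260). LSS passed in all 6 fits without a further tumour, and MVD and MVK in 2. INSIG1, which retains the sterol sensor SCAP in the endoplasmic reticulum, differed by 0.63 ± 0.20 with 8 tumours and 0.58 ± 0.20 with 6 and did not pass (adjusted p = 0.261 and 0.123 by edgeR).

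DNA replication genes had 23 of 25 negative differences with 8 and with 6 tumours, of modest size, with medians of −0.25 and −0.33. None passed with 8 tumours, and 3 fell with 6, RRM2 and MCM10 among them. Of all genes tested, 50.8% were negative with 8 tumours and 50.3% with 6, and 2.51% passed as lower with 6. RRM2, a subunit of ribonucleotide reductase, had 40.6, 49.8, 57.5 and 48.1 CPM under RMC-7977 and 106, 106, 112 and 61.4 CPM under RMC-4550. It differed by −0.98 ± 0.21 with 8 (adjusted p = 0.118 by edgeR) and −1.01 ± 0.20 with 6 (adjusted p = 0.0175). MCM10, a replication initiation factor, had 9.98, 14.02, 14.2 and 11.6 CPM under RMC-7977 and 28.6, 31.2, 37.6 and 17.96 CPM under RMC-4550 and differed by −1.21 ± 0.24 with 8 (adjusted p = 0.105 by edgeR) and −1.27 ± 0.25 with 6 (adjusted p = 0.0153). Without a further tumour, MCM10 kept its call in 4 of 6 fits, and RRM2 in 2. Ribosome biogenesis genes had 19 of 22 negative differences, medians of −0.27 and −0.36, and 0 and 1 past the threshold. TCOF1, a nucleolar factor of ribosomal RNA synthesis, was that gene, at −0.56 ± 0.14 with 6 tumours (adjusted p = 0.0427 by edgeR, kept in 1 of 6 fits without a further tumour), where NOP56 was at −0.36 ± 0.12 (adjusted p = 0.105); with 8 tumours TCOF1 and NOP56 were at −0.38 ± 0.29 and −0.34 ± 0.13 (adjusted p = 0.699 and 0.368). Mitosis genes, for comparison, had medians of −0.05 and −0.13 with 0 of 24 called in each.

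Prostaglandin genes followed PTGS1 in part. Of 9 tested, PTGS1 fell with 8 tumours and PLA2G4A joined it with 6, and the medians were −0.65 and −0.52. PLA2G4A, the phospholipase that releases arachidonic acid, had 62.3, 76.8, 95.9 and 68.9 CPM under RMC-7977 and 194, 119, 144 and 128 CPM under RMC-4550, a difference of −0.94 ± 0.20 with 8 (adjusted p = 0.118 by edgeR) and −0.90 ± 0.13 with 6 (adjusted p = 0.00202). PTGS2, the inducible cyclooxygenase, differed by −0.89 ± 0.26 and HPGD, which degrades prostaglandins, by −0.83 ± 0.32 with 8 tumours (adjusted p = 0.230 and 0.374 by edgeR), and by −0.70 ± 0.25 and −0.52 ± 0.28 with 6 (adjusted p = 0.137 and 0.322). Of 10 BMP ligands, SMAD brakes and ID genes, 0 passed with 8 tumours, and BMP2 and BMP6 fell with 6. BMP2 had 30.3, 32.5, 32.5 and 43.6 CPM under RMC-7977 and 76.0, 80.1, 129 and 63.2 CPM under RMC-4550 and 41.8 CPM under Vehicle (36.8 to 43.7), so that the RMC-4550 tumours lay above Vehicle. BMP2 differed by −1.32 ± 0.24 with 8 (adjusted p = 0.0717 by edgeR) and −1.34 ± 0.26 with 6 (adjusted p = 0.0239), and BMP6 by −1.84 ± 0.37 (adjusted p = 0.107) and −2.19 ± 0.25 (adjusted p = 4.80e-04). BMP6 passed in all 6 fits without a further tumour, and BMP2 in 3.

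Of 13 keratins, KRT15 rose with both sets of tumours and KRT19 with 6, with medians of 0.13 and 0.09. KRT19, a keratin of simple epithelium and the neighbour of KRT15 on hg38 chromosome 17 (41523617 to 41528308, against 41513743 to 41522529), had 1719, 1839, 1021 and 1727 CPM under RMC-7977 and 482, 735, 562 and 876 CPM under RMC-4550. The groups did not overlap, and the difference was 1.25 ± 0.26 with 8 tumours (adjusted p = 0.117 by edgeR) and 1.29 ± 0.19 with 6 (adjusted p = 0.00249). KRT17 and KRT81 were at −0.36 ± 0.28 and 0.48 ± 0.33 with 8 (adjusted p = 0.701 and 0.656 by edgeR) and −0.45 ± 0.26 and 0.46 ± 0.23 with 6 (adjusted p = 0.357 and 0.273). Of 9 mucins tested, 0 passed with 8 tumours and MUC20 rose with 6 (kept in 4 of 6 fits without a further tumour), with medians of 0.37 and 0.40. MUC16, a large membrane mucin, had 1290, 1143, 247 and 1598 CPM under RMC-7977 and 118, 1023, 439 and 873 CPM under RMC-4550, with RMC-7977 replicate 3 and RMC-4550 replicate 1 the lowest of their groups, and RMC-4550 replicate 3 next lowest of its group. It differed by 0.80 ± 0.65 with 8 (adjusted p = 0.718 by edgeR) and 0.79 ± 0.27 with 6 (adjusted p = 0.128), without passing. CD36, a fatty acid receptor, had 202, 193, 214 and 239 CPM under RMC-7977 and 479, 205, 203 and 213 CPM under RMC-4550, and only RMC-4550 replicate 1 stood out; its difference was −0.38 ± 0.28 with 8 and 0.03 ± 0.13 with 6 (adjusted p = 0.691 and 0.918 by edgeR).

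**Figure D5:**
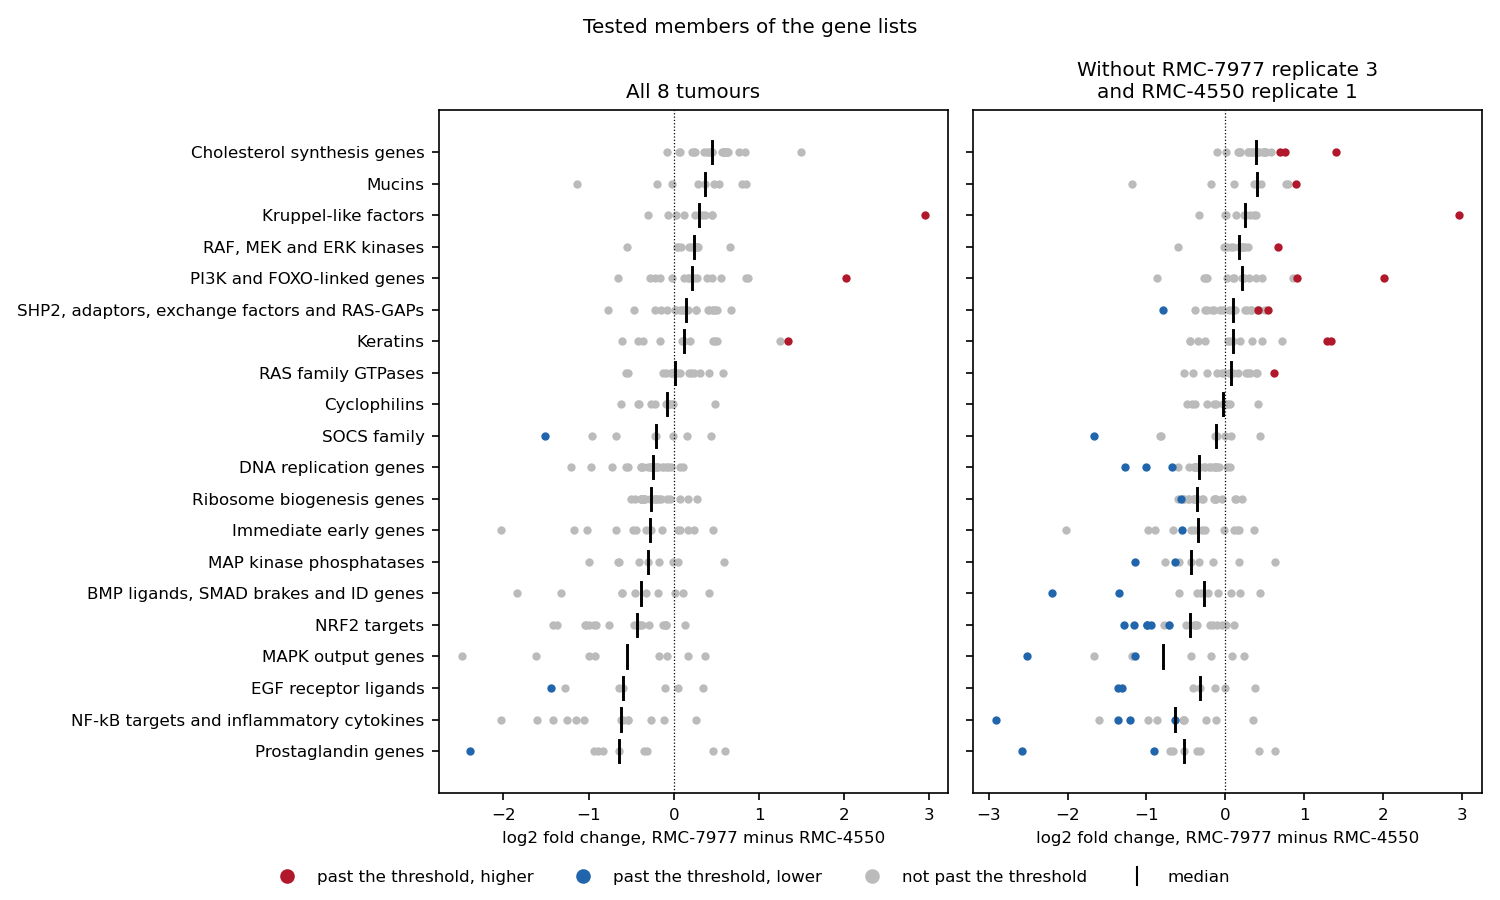
Each point is a tested member of the list named on the left, at its log2 fold change, RMC-7977 minus RMC-4550, with all 8 tumours (left) and without the 2 libraries (right); red and blue points passed as higher and lower, grey points did not pass, and black bars are medians. Cholesterol synthesis genes lie mostly above 0 and NRF2 targets and NF-κB targets mostly below it, and most points are grey with 8 tumours.

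In the 6 tumours, the rule that takes the 12 largest rises and falls among protein-coding genes gave several genes beyond those above, chosen after their values were seen. Among the rises, AMN, a part of the receptor for vitamin B12 uptake in the gut, had 146, 107, 55.4 and 160.3 CPM under RMC-7977 and 16.9, 35.7, 37.8 and 41.4 CPM under RMC-4550. B3GNT6, an enzyme of mucin glycosylation, had 13.6, 26.4, 4.55 and 29.01 CPM under RMC-7977 and 1.67, 5.98, 3.46 and 6.29 CPM under RMC-4550. In both, RMC-7977 replicate 3 was the lowest of its group, and the differences with 6 tumours were 1.85 ± 0.15 and 2.14 ± 0.31 (adjusted p = 4.95e-05 and 0.00396 by edgeR's quasi-likelihood test). BNIPL, RAB37, GRIN2C, C4orf19 and CEACAM7 rose by 2.12, 1.88, 1.85, 1.64 and 1.89 on the log2 scale in the same fit. With 8 tumours AMN and B3GNT6 were at 1.83 ± 0.36 and 2.07 ± 0.56 (adjusted p = 0.105 and 0.196 by edgeR), and the other 5 at 1.72, 1.82, 2.23, 1.19 and 1.60, none of them past the threshold. Among the falls, PTP4A1, a phosphatase of regenerating liver, had 0.856, 1.097, 3.12 and 0.819 CPM under RMC-7977 and 5.84, 5.59, 3.02 and 7.20 CPM under RMC-4550. RMC-7977 replicate 3 lay within the RMC-4550 range, and the difference with 6 tumours was −2.50 ± 0.39 (adjusted p = 0.00335 by edgeR). ADAM12, a metalloprotease, ECM2, a matrix protein, and GALNT15, a glycosyltransferase, fell with differences of −2.02 ± 0.29, −1.93 ± 0.34 and −2.01 ± 0.26 (adjusted p = 0.00234, 0.00734 and 0.00470 by edgeR). With 8 tumours PTP4A1, ADAM12, ECM2 and GALNT15 were at −1.88 ± 0.47, −1.78 ± 0.33, −1.80 ± 0.46 and −1.74 ± 0.29, none past the threshold. GALNT15 had 13.1, 26.3, 38.1 and 25.9 CPM under RMC-7977 and 80.0, 86.2, 71.5 and 108 CPM under RMC-4550, missed the threshold narrowly with 8 tumours (adjusted p = 0.0548 by edgeR), and had 3 of 4 RMC-4550 tumours above the range of 18.4 to 74.7 CPM under Vehicle (median 47.2).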

How the data were processed

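RNA from 22 H2110 xenograft tumours was sequenced from strand-specific libraries, per the labels' protocols. The deposited table holds raw counts per gene, whole numbers for 58735 genes, made by the authors; the submitters' processing notes name hg38, HISAT2 (2.0.5) and featureCounts (1.5.0-p3), besides fastp, edgeR (3.22.5) and DESeq2 (1.20.0). Not given in the sources used here are the annotation release, the strand setting, the handling of multi-mapping reads, any removal of host reads, and the host.

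From these, edgeR (4.0.16, in R 4.3.3) kept genes by filterByExpr with a minimum count of 10 over the 8 tumours (16076 genes with 99.736% of the counts). Libraries were scaled by TMM over 22 tumours, and a robust quasi-likelihood model was fitted to the 8 tumours with 2 groups. Tests were 2-sided F-tests, adjusted over all genes tested (Benjamini-Hochberg, threshold 0.05). CPM are shown on TMM sizes. The fit was checked on simulated data. Those data held no GC trend and no library that stood apart, so the check does not cover these features of the 8 libraries. Total counts were 10353740 to 15888488, and the labels name no molecular identifiers, so counting error is a lower bound. GC content came from GENCODE 29 transcripts for 16071 genes. Alternatives were other tumours in the fit, DESeq2 (1.42.0), limma (3.58.1) with sample weights, other scalings and filters, a test against 0.5, a replicate block and a GC correction; those that combine the 2 left-out libraries with another choice were added after seeing the data.

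Named genes were the 12 largest protein-coding rises and falls past the threshold with a mean log2 CPM of 1 or more and no overlap between groups, up to 4 members with the smallest p per described list, and the MAPK output, RAS, MEK and ligand genes of the pathway. Some of these genes are not reported here. The members, the lists and the rule were chosen with earlier results of these data known.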

Additional observations from a re-analysis of the deposited data

Results flagged for a closer look

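Among the 49 genes named by rule that were examined in both groups of 4 tumours, 7 of 98 groups held 1 tumour whose gap to the nearest other exceeded Dixon's 95% critical value of 0.829; chance alone marks about 1 group in 20. Of the 7, 5 involve the 2 libraries that stood apart. In RMC-7977 replicate 3, MAP2K2 was at 131.7 CPM against 180.4 to 187.1 CPM in the other 3, and PHLDA1 at 1.601 CPM against 1.229 to 1.253 CPM. In RMC-4550 replicate 1, CD36 was at 479.2 CPM against 202.8 to 213.1 CPM, NRAS at 175.4 CPM against 89.52 to 91.36 CPM, and PAPPA at 12.35 CPM against 21.8 to 24.2 CPM. The other 2 were SOCS2 in RMC-4550 replicate 2, at 6.429 CPM against 12.09 to 12.44 CPM, and LUCAT1 in RMC-4550 replicate 3, at 44.94 CPM against 76.32 to 84.46 CPM. PAPPA and LUCAT1 passed the threshold between the drugs with all 8 tumours and without the 2 libraries.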

How the results depend on the processing

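With all 8 tumours 28 genes passed (10 higher, 18 lower under RMC-7977). TMM over the 8 tumours, RLE scaling and a fit that was not robust gave 28 each, total counts alone 30 and a mean CPM of at least 1 gave 29. Leaving out 1 tumour gave 0 to 70 in all, 0 to 26 higher and 0 to 45 lower. The fit of all 22 tumours gave 17 (10 lower), that without Trametinib replicate 4 gave 110 (45 and 65), and 18 tumours without the 4 libraries apart gave 213 (99 and 114). Without the 2 libraries 816 passed (409 and 407). DESeq2 called 465 (214 and 251), limma voom with sample weights 749 (337 and 412), no filter 164 (39 and 125), and a test against 0.5 called 3 (1 and 2). The GC correction gave 148 (56 and 92). Without the 2 libraries, the GC correction gave 892 (469 and 423), DESeq2 1158 (579 and 579) and total counts 834 (356 and 478). Those splits are 50.1% higher with TMM and 42.7% with total counts. With 1 tumour fewer still, the counts were 402 (224 and 178), 398 (193 and 205) and 408 (181 and 227) without RMC-7977 replicates 1, 2 and 4, and 509 (266 and 243), 532 (222 and 310) and 662 (309 and 353) without RMC-4550 replicates 2, 3 and 4.

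The labels do not say what tumours with the same replicate number share. Their deviations from the group means correlated at −0.17, 0.27, −0.18 and 0.24 (replicates 1 to 4), against −0.54 to 0.55 between tumours of different numbers. So few pairs, with the 2 libraries apart among them, cannot decide whether the numbers mark a pairing. With the replicate block 0 genes passed (0 higher, 0 lower; smallest adjusted p 0.125; 1414 at an unadjusted p under 0.05), and with the GC correction as well 26 passed (12 and 14).

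Near-0 differences changed sign, none of them past a threshold. Without the 2 libraries and in the 18-tumour fit CD36 was at 0.034 and 0.033 and NRAS at 0.055 and 0.055; with voom weights NRAS was at 0.092 and PPIA at 0.0100. With the GC correction HRAS was at −0.12 and NRAS at 0.027, and with the block as well −0.096 and 0.023. Without the 2 libraries, the GC correction gave CD36 0.069, HRAS −0.0060, NRAS 0.084 and PPIA 0.0083, DESeq2 gave CD36 0.030 and NRAS 0.051, and total counts gave CD36 0.00082 and NRAS 0.021. Leaving out 1 tumour, from the 8 or from the 6, gave log2 differences of −0.068 to 0.33 (CCND1), −0.51 to 0.091 (CD36), −0.73 to 0.11 (DUSP6), −0.059 to 0.13 (HRAS), −0.045 to 0.37 (MAP2K1), −0.26 to 0.22 (NRAS), −0.16 to 0.10 (PPIA), −0.0062 to 0.23 (RIT1) and −0.29 to 0.014 (SPRY2).

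The cause of these changes was not tested. Differences in genes with counts near the filter of 10 are the least precise at this depth. Of the 816 genes, 234, the 28 among them, passed in all 6 of the smallest fits.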

Other observations

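Several genes outside the lists described above also separated the drugs without the 2 libraries; all were chosen after their values were seen. AMDHD1, which acts later in the histidine breakdown that HAL starts, lies beside HAL on hg38 chromosome 12 (95943293 to 95968716, against 95972662 to 95996365). It had 2.57, 1.72, 5.14 and 3.00 CPM under RMC-7977 and 11.5, 9.39, 12.3 and 7.62 CPM under RMC-4550, no overlap between the drugs, and differed by −1.71 ± 0.33 with 8 tumours (adjusted p = 0.105 by edgeR's quasi-likelihood test) and −1.99 ± 0.28 with 6 (adjusted p = 0.00215). DKK1, a secreted WNT inhibitor, had 62.0, 50.2, 37.2 and 70.4 CPM under RMC-7977 and 81.7, 111, 118 and 136 CPM under RMC-4550 and differed by −1.02 ± 0.23 with 8 (adjusted p = 0.126 by edgeR) and −0.99 ± 0.14 with 6 (adjusted p = 0.00215). F3, tissue factor, differed by −0.93 ± 0.17 and CEBPB, a transcription factor of inflammation, by −0.92 ± 0.13 with 6 tumours (adjusted p = 0.00814 and 0.00234 by edgeR), and by −0.98 ± 0.25 and −0.74 ± 0.21 with 8 (adjusted p = 0.162 and 0.208). BMF, a BH3-only activator of apoptosis, had 63.8, 87.8, 39.3 and 73.0 CPM under RMC-7977 and 19.0, 37.5, 36.6 and 46.2 CPM under RMC-4550 and rose by 0.91 ± 0.15 with 6 (adjusted p = 0.00470 by edgeR), where 8 tumours gave 0.92 ± 0.30 (adjusted p = 0.290). Of 11 BH3-only and effector apoptosis genes tested, BMF was the 1 that passed with 6 tumours, and 0 passed with 8. Of the 11, 8 were negative with 8 tumours and 7 with 6, with medians of −0.12 and −0.13. Of all genes tested, 50.8% and 50.3% were negative.

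The epithelial regulator ESRP2, a splicing factor, and the receptor ERBB3 were higher under RMC-7977 in the 6 tumours. ERBB3 had 173, 159.6, 81.4 and 175 CPM under RMC-7977 and 49.5, 111, 100.5 and 106 CPM under RMC-4550, where RMC-7977 replicate 3 and RMC-4550 replicate 1 were the lowest of their groups. ERBB3 differed by 0.68 ± 0.12 and ESRP2 by 0.64 ± 0.12 with 6 (adjusted p = 0.00541 and 0.00856 by edgeR), and by 0.68 ± 0.30 and 0.62 ± 0.24 with 8 (adjusted p = 0.443 and 0.371). CDH1, which encodes E-cadherin, differed by 0.79 ± 0.34 with 8 (adjusted p = 0.422 by edgeR) and 0.84 ± 0.17 with 6 (adjusted p = 0.0163), and kept the second call in 3 of the 6 fits without a further tumour. The epithelial markers as a whole summed to 4086 to 6219 CPM under RMC-7977 and 3132 to 4762 CPM under RMC-4550, and their part in the result was not tested. ESRP2 and CDH1 were the 2 of 10 tested epithelial-mesenchymal transition genes that passed with 6 tumours; 5 of the 10 were positive and 5 negative there, with a median of 0.011, and with 8 tumours 6 were positive, none passed and the median was 0.033.

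PECAM1, usually a marker of endothelium, had 5.13, 5.88, 19.3 and 7.03 CPM under RMC-7977 and 34.3, 29.1, 29.5 and 23.4 CPM under RMC-4550. RMC-7977 replicate 3 stood between the groups, and the difference was −1.64 ± 0.39 with 8 (adjusted p = 0.143 by edgeR) and −2.17 ± 0.18 with 6 (adjusted p = 4.95e-05). The 10 endothelial markers, of which 4 could be tested, summed to 23.9 to 79.0 CPM under RMC-7977 and 46.2 to 74.4 CPM under RMC-4550, PECAM1 included. With 8 tumours 2 of the 4 were positive and 2 negative (median 0.29). With 6 tumours 1 was positive and 3 were negative (median −0.01). Of these markers, CLDN5 had 9.67 to 55.9 CPM under RMC-7977 and 8.32 to 36.4 CPM under RMC-4550. VWF had 1.18 to 3.44 CPM under RMC-7977 and 0.832 to 2.24 CPM under RMC-4550. ENG had 1.77 to 5.65 CPM under RMC-7977 and 2.08 to 5.39 CPM under RMC-4550. CDH5 had 0 to 0.63 CPM and 0 to 1.32 CPM, and KDR 0 to 0.23 CPM and 0 to 0.19 CPM, in the same order. Which cells the PECAM1 counts came from was not tested.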
